A study of Mus musculus with 4 samples.

Results

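The PPAR, RXR and LXR genes and the PGC-1 coactivator genes were examined in EO771 cells, a mouse mammary carcinoma line, exposed to recombinant mouse A-FABP. The 10 members were chosen by name: Ppara, Ppard, Pparg, Rxra, Rxrb, Rxrg, Nr1h2, Nr1h3, Ppargc1a and Ppargc1b. Each of 9 members had 1 probe set that the platform annotation assigns to that gene alone, out of 22180 genes read in this way. For Nr1h2, which encodes LXR beta, the annotation used here gave no such probe set, and its expression was not analysed here.

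A-FABP (adipose fatty acid binding protein, encoded by Fabp4) is a small cytosolic lipid carrier that adipocytes also release into blood. In the A-FABP group (2 arrays) the protein was added at 100 ng/ml. The control group (2 arrays) received PBS, according to the series design. All cells had been grown for 24 hours beforehand to at least 70% confluence. Exposure time was not given in the sources used here. Replicates carry the word biological in their labels, but nothing says whether they came from separate cultures, so the error estimates describe the spread between these arrays only. The free-text description of the controls mentions A-FABP as well, whereas their titles and source names mark them as controls. EO771 is a single transplantable line, so nothing here speaks for other tumours.

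Peroxisome proliferator-activated receptors (PPARs) are nuclear receptors that bind fatty acids and their derivatives and switch on genes for lipid oxidation and storage. Liver X receptors (LXRs) bind oxysterols and switch on cholesterol efflux and lipogenic genes. Both bind DNA as heterodimers with a retinoid X receptor (RXR), and PGC-1 proteins are coactivators that dock on PPARs and other receptors to raise oxidative and mitochondrial genes. Intracellular fatty acid binding proteins can carry ligands to PPARs, and in adipocytes Fabp4 is itself a PPAR gamma target.

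Values are log2 expression levels made by the authors, and a difference is the A-FABP mean minus the PBS mean on that scale. A level is only set against the median of its own arrays, 5.95 to 6.03, because signals of different probe sets are not comparable as transcript amounts. Replicate arrays correlated at r = 0.9906 (A-FABP) and 0.9914 (PBS) across 41345 probe sets. The epithelial keratin gene Krt8 lay above the array medians on every array (8.74 to 8.85). Krt18, Krt19 and Cdh1 lay near the medians (5.84 to 6.39) and Epcam below them (4.45 to 5.05), so the epithelial identity of the line rests on few bright markers here. Of the fibroblast markers, Pdgfra was bright on all arrays (11.16 to 11.22) and Col1a1 lay above the medians (6.66 to 6.89). Dcn (6.09 to 6.73) and Thy1 (5.55 to 6.28) lay near the medians and Lum below them (4.32 to 4.75). The adipocyte hormone genes Adipoq and Lep lay below the medians (4.76 to 5.42), as did Cidec (4.87 to 5.43). The other adipocyte markers did not: Retn (5.96 to 6.33) and Plin1 (6.24 to 6.33) lay near the medians, and Lipe (7.43 to 7.69) above them. Fabp4 itself was bright on all arrays (13.18 to 13.33).

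No member passed the test. In the limma fit over 41345 probe sets, 0 had a Benjamini-Hochberg adjusted p under 0.05, a percentage of 0, and the lowest adjusted p was 0.296. An unadjusted p under 0.05 was given to 6258 probe sets, and 2067 would be expected if none differed. Among the 9 members, 1 gene (Ppargc1b) had an unadjusted p under 0.05 on the lower side and 0 on the higher side. Among all genes, 8.24% had such a p on the lower side and 4.81% on the higher side. After median centring of the arrays that balance turned from 1828 lower and 1066 higher to 1048 lower and 1812 higher, and after cyclic loess it was 1062 and 979. The groups did not overlap in 5 members, with A-FABP lower in 3 (Rxra, Rxrg and Ppargc1b) and higher in 2 (Ppard and Rxrb). Over all genes those shares were 27.5% and 26%, so neither count stands clear of the background. After median centring the counts were 2 lower (without Rxra) and 2 higher, against 18.4% and 38.2% of all genes. After cyclic loess or repeated quantile normalization they were 2 lower (without Rxrg) and 0 higher, against 24.4% and 23.2% of all genes for the former and 27.8% and 20.6% for the latter.

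**Figure D1:**
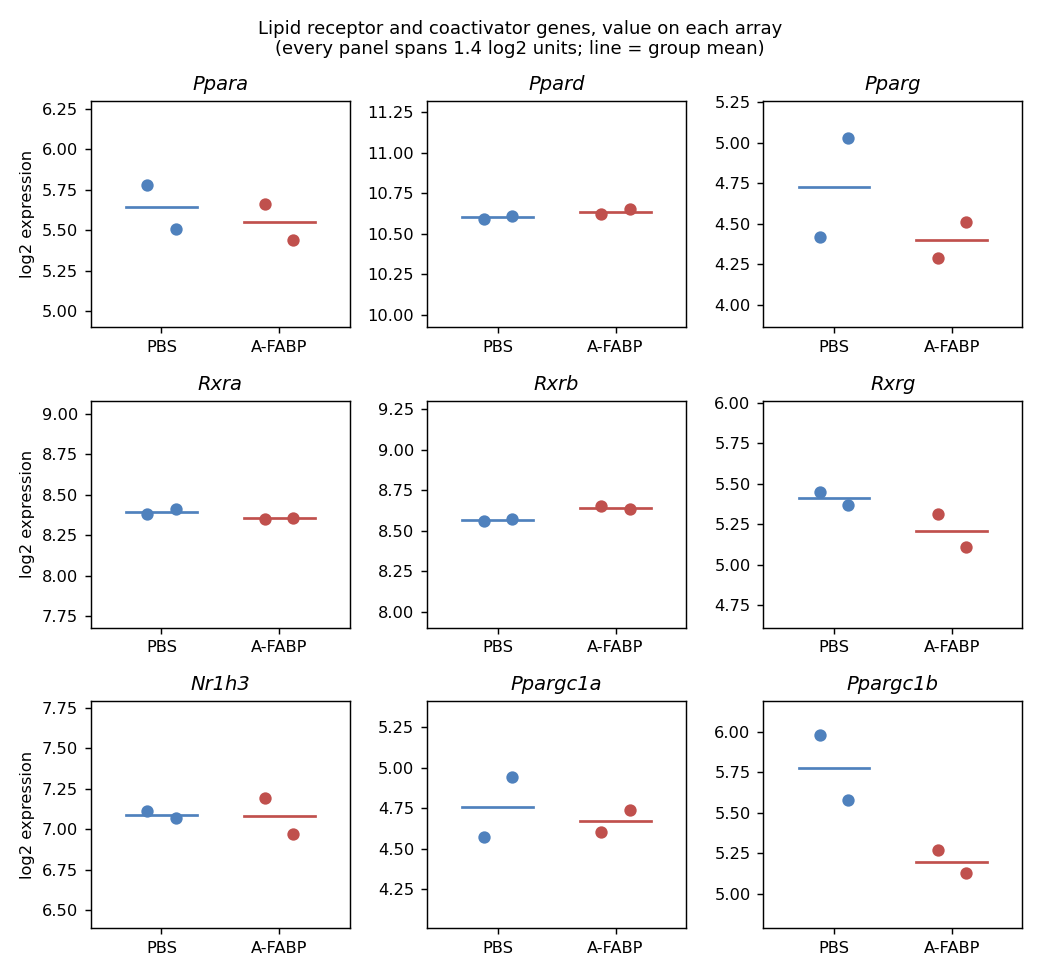
Log2 expression (vertical axis) of the 9 measured genes on each array, PBS in blue and A-FABP in red, with a line at each group mean; every panel spans a range of the same width. Ppargc1b shows the widest separation, with A-FABP arrays at 5.27 and 5.13 and PBS arrays at 5.98 and 5.58, while Pparg and Ppargc1a each have 1 PBS array (PBS replicate 2) above the other 3.

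Of the PGC-1 genes, Ppargc1b had the larger difference. It encodes PGC-1 beta, a coactivator of oxidative metabolism and of lipogenic factors. Its level was 5.27 and 5.13 on the A-FABP arrays and 5.98 and 5.58 on the PBS arrays. The A-FABP arrays were the 2 lowest, and the 0.31 separating the groups was smaller than the 0.40 separating the controls from each other. The difference was -0.58 ± 0.17 (SE, 2 arrays per group; 95% CI -1.06 to -0.10), a 1.5-fold lower level. In the limma fit over all probe sets its unadjusted p was 0.0284 and its adjusted p 0.302. The unadjusted p did not stay under 0.05 throughout. In limma it was 0.0371 after median centring, 0.0532 after cyclic loess and 0.0418 after repeated quantile normalization. The adjusted p was 0.315, 0.394 and 0.36. With the replicate number as a block the unadjusted p was 0.0179, and with other eBayes settings 0.0222 (adjusted p 0.377 and 0.242). Over the alternatives its difference ran from -0.78 to -0.38. It lay at -0.38 without PBS control replicate 1, whose value was the highest of the 4. All of its values lay below the array medians.

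Ppargc1a, which encodes PGC-1 alpha, a cold- and exercise-inducible regulator of mitochondrial biogenesis, read 4.6 and 4.74 under A-FABP, against 4.57 and 4.94 under PBS. The groups overlapped, with a PBS array at each end. Its difference of -0.08 (95% CI -0.53 to 0.36, adjusted p = 0.825 in limma) turned to 0.10 without PBS control replicate 2 and to 0.02 after cyclic loess. The interval spans levels from 1.45-fold lower to 1.29-fold higher. Whether the PGC-1 genes differ from each other in their response was not tested.

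Among the PPAR genes, Ppard gave the tightest values. Ppard encodes PPAR delta, the widely expressed family member that governs fatty acid oxidation in many tissues. It read 10.62 and 10.65 under A-FABP, against 10.59 and 10.61 under PBS. The A-FABP arrays were the higher ones by 0.01 only, and after cyclic loess the difference was -0.0036 in place of 0.04 ± 0.08 (adjusted p = 0.839). The 95% CI of -0.18 to 0.25 leaves room for a level at most 1.13-fold lower or 1.19-fold higher. A further probe set, assigned to both Ppard and 1810013A23Rik, read 6.69 and 6.56 against 6.77 and 7.01. Its difference was -0.27 (95% CI -0.61 to 0.08), and which of the genes it reads is not known, so it stands for neither.

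Ppara encodes PPAR alpha, the fasting regulator of liver. It read 5.66 and 5.44 under A-FABP, against 5.78 and 5.51 under PBS. Within each group the arrays were further apart (0.22 and 0.28) than the means of the groups. The difference of -0.09 (95% CI -0.51 to 0.32, adjusted p = 0.785 in limma) turned to 0.02 without A-FABP replicate 2, to 0.05 without PBS control replicate 1 and to 0.02 after cyclic loess.

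Pparg encodes PPAR gamma, the master regulator of adipocyte differentiation. It read 4.29 and 4.51 under A-FABP, against 4.42 and 5.03 under PBS. PBS replicate 2 stood above the other 3 arrays, which lay between 4.29 and 4.51. The difference was -0.32 ± 0.24 (95% CI -1.0 to 0.36, adjusted p = 0.555 in limma), and -0.02 without PBS control replicate 2. The interval covers a level up to 2.0-fold lower. The gene is transcribed from several promoters, and a single probe set does not tell their products apart.

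The RefSeq promoter windows of the members (build GRCm38.p6, 250 bases before to 50 after a start) were searched on both strands for AGGTCA, the hexamer that PPAR, RXR and LXR dimers recognise, usually as a direct repeat. At least 1 hexamer was found in 4 of 15 windows of 9 genes, belonging to Pparg, Rxra and Rxrg, against 16.3% of all 32851 windows. These 9 genes are not the 9 measured members: they include Nr1h2, and Ppargc1b was not searched. Direct repeats with a spacing of 1 base, the PPAR:RXR arrangement, or of 4 bases, the LXR:RXR arrangement, were in 0 of the 15 windows and in 0.0396% and 0.0152% of all windows. Windows can overlap where starts lie close together, and each repeat also counts as a hexamer. The stretches holding the hexamers of Pparg are shown because they lie at different starts of the same gene, at chr6:115361096-115361141 and chr6:115362320-115362365 on the plus strand, with the match in capitals beginning at positions -28 and -9 from the start.
Pparg, first start: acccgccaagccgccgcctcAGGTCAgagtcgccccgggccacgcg
Pparg, second start: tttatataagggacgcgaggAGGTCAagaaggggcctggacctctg

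Among the RXR genes, Rxra and Rxrb gave values as tight as those of Ppard. Rxra encodes RXR alpha, the main partner of PPARs and LXRs in most tissues. It read 8.35 and 8.36 under A-FABP, against 8.38 and 8.41 under PBS. All 4 values lay between 8.35 and 8.41, with the A-FABP arrays just below. The difference of -0.03 ± 0.08 (95% CI -0.25 to 0.18, adjusted p = 0.852 in limma) turned to 0.03 after median centring. Rxrb, which encodes the broadly expressed RXR beta, read 8.65 and 8.63 under A-FABP, against 8.56 and 8.57 under PBS. The A-FABP arrays were the higher pair by 0.05. Its difference was 0.07 ± 0.08 (95% CI -0.14 to 0.29, adjusted p = 0.668) and became -0.0077 when quantile normalization was repeated.

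Rxrg encodes RXR gamma, which is best known from muscle, brain and pituitary. It read 5.31 and 5.11 under A-FABP, against 5.45 and 5.37 under PBS. Both A-FABP arrays were lower, by 0.06, less than the 0.21 between them. The difference was -0.20 ± 0.11 (95% CI -0.51 to 0.11, adjusted p = 0.444 in limma), and it ran from -0.31 to -0.08 over the alternatives. After cyclic loess and after repeated quantile normalization its groups overlapped. In the promoter windows, 1 start of Rxra carried 2 hexamers on opposite strands (chr2:27709185-27709269, plus strand, beginning at positions -87 and -48 from the start), and 1 start of Rxrg carried a single one (chr1:167618157-167618202, plus strand, position -88). They are shown as the RXR counterparts of the Pparg stretches, with each hexamer or its reverse complement in capitals.
Rxra: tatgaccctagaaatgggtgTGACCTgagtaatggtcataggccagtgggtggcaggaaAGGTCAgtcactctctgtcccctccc
Rxrg: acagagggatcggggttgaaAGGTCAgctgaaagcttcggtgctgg

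LXR was represented by Nr1h3 alone. Nr1h3 encodes LXR alpha, the form prominent in liver, fat and macrophages. It read 7.19 and 6.97 under A-FABP, against 7.11 and 7.07 under PBS. The A-FABP arrays lay on either side of both controls. The difference was -0.0046 (95% CI -0.31 to 0.30, adjusted p = 0.989 in limma), and its sign turned with A-FABP replicate 2 or PBS control replicate 1 left out (0.10 and 0.02) and after median centring (0.06). The interval admits levels up to 1.24-fold lower or 1.23-fold higher.

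**Figure D2:**
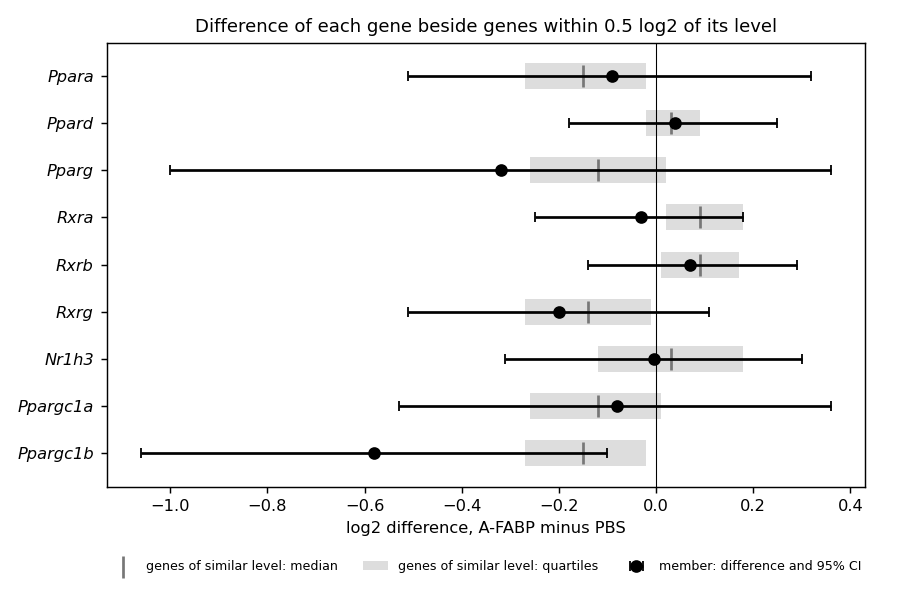
Log2 difference, A-FABP minus PBS (horizontal axis), of each gene with its 95% confidence interval from limma (black), beside the median (grey tick) and quartiles (grey bar) of all genes whose level lies within 0.5 log2 of its own. Ppargc1b at -0.58 is the 1 member whose interval leaves out 0, and it lies below the lower quartile of its neighbours (-0.27), as Pparg and Rxra do below theirs.

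The members split by level. The 5 that lay below the median level of all probe sets (Ppara, Pparg, Rxrg, Ppargc1a and Ppargc1b) all had negative differences, with a median of -0.20, although those of Ppara and Ppargc1a turned positive under the alternatives given above. The 4 above it (Ppard, Rxra, Rxrb and Nr1h3) lay between -0.03 and 0.07, with a median of 0.016. The same tilt ran through the array. Of all 9635 genes below that level, 70.2% had a negative difference, with a median of -0.11, and of the 12545 genes above it 38.7%, with a median of 0.038. What part this tilt has in the negative differences of the dim members was not tested.

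Each member was therefore read beside the genes within 0.5 log2 of its level. Ppargc1b lay 0.43 lower than the median of 4890 such genes (-0.15, quartiles -0.27 and -0.02). Pparg lay 0.20 lower than its neighbours (median -0.12) and Rxra 0.13 lower than its own (0.09, quartiles 0.02 and 0.18). Rxrg, Rxrb, Nr1h3, Ppard, Ppara and Ppargc1a lay within 0.06 of the median of their neighbours.

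**Figure D3:**
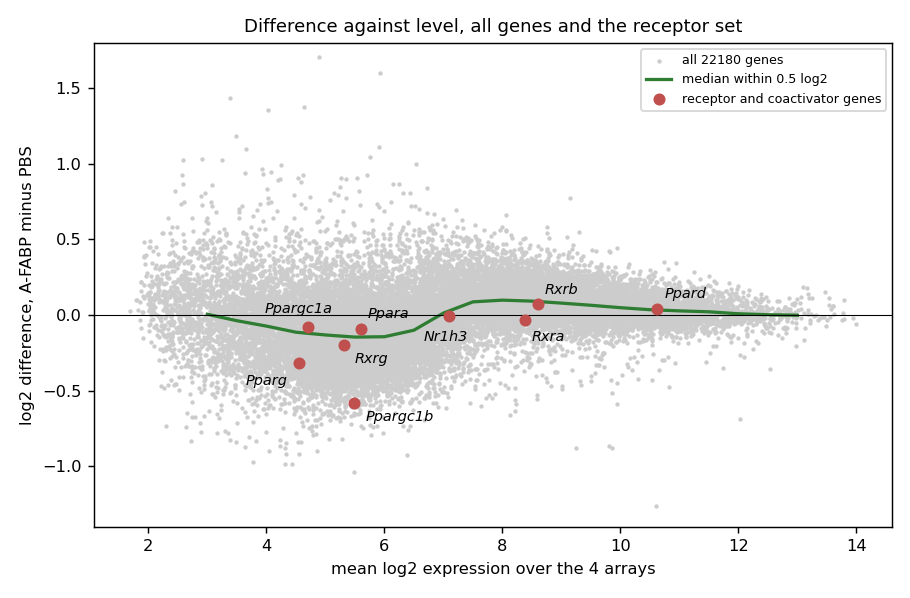
Log2 difference, A-FABP minus PBS (vertical axis), against mean log2 expression over the 4 arrays (horizontal axis) for 22180 genes (grey), with the median within 0.5 log2 (green) and the 9 receptor and coactivator genes (red). The green median lies between -0.15 and -0.12 at the levels of Ppara, Pparg, Rxrg, Ppargc1a and Ppargc1b, and Ppargc1b is the member furthest beneath it.

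The genes around the receptors were followed through lists of targets, partners and ligand carriers. Of 29 listed PPAR targets 24 were measured, 13 with a difference below 0 and 11 above, and the median was -0.074 against -0.01 for all genes. It came to -0.009 after median centring, -0.009 after cyclic loess and -0.034 after repeated quantile normalization. Of the 24, 9 were lower and 3 higher without overlap of the groups, where 27.5% and 26% of all genes were so. Among these targets, 11 lay below the median level, where the counts over 9635 genes were 3522 lower and 905 higher. At an unadjusted p under 0.05 there was 1 lower and 0 higher, against 8.24% and 4.81% of all genes. That gene was Cidea, which encodes a lipid droplet protein of brown fat, at 5.18 and 5.21 under A-FABP, against 5.63 and 5.71 under PBS. Its groups lay 0.42 apart (difference -0.47 ± 0.08, adjusted p = 0.296 in limma). Pdk4, which encodes a kinase that spares glucose and responds to PPARs in most tissues, read 5.00 and 4.63 against 5.33 and 5.03. Ucp3, which encodes a mitochondrial carrier of muscle, read 5.94 and 5.76 against 5.99 and 6.11. A-FABP arrays were the lower ones in each, by no more than 0.05, and without A-FABP replicate 2 the differences of -0.36 and -0.20 became -0.18 and -0.11. Neither gene passed (adjusted p = 0.418 and 0.441 in limma).

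Of 22 LXR targets 18 were measured, 11 below 0 and 7 above. Their median of -0.051 turned to 0.014 after median centring, 0.045 after cyclic loess and 0.006 after repeated quantile normalization, so the list has no stable direction. Without overlap of the groups, 3 were lower and 5 higher, where 27.5% and 26% of all genes were so. In the limma fit of the deposited values over all probe sets, no LXR target had an unadjusted p under 0.05. Abcg1, which encodes a cholesterol exporter, came closest, at 8.07 and 8.09 under A-FABP, against 7.85 and 7.89 under PBS. Both A-FABP arrays lay 0.18 or more above the controls (difference 0.21 ± 0.08). The limma fit over all probe sets gave it an unadjusted p of 0.0533 and an adjusted p of 0.334. In limma the unadjusted p was 0.0298 after median centring, 0.111 after cyclic loess and 0.121 after repeated quantile normalization. It was 0.0209 with only probe sets above the median level and 0.0315 with other eBayes settings. Genes within 0.5 log2 of Abcg1 had a median difference of 0.10 and an upper quartile of 0.19, so Abcg1 lay only a little past that quartile. Apoe, which encodes a lipoprotein ligand that accepts effluxed cholesterol, lay at -0.15 (-0.07 without A-FABP replicate 1 and -0.23 without A-FABP replicate 2) and Smpdl3a, which encodes a phosphodiesterase, at -0.32. The Smpdl3a value rested on PBS replicate 2 (6.73, against 6.08 to 6.13 on the other 3 arrays) and was -0.02 without it.

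All 11 listed receptors that pair with RXR were measured, 9 below 0 and 2 above, with a median of -0.035 that turned to 0.03 after median centring. The groups did not overlap in 5 lower and 1 higher, where 27.5% and 26% of all genes were so. At an unadjusted p under 0.05, 2 were lower and 0 higher, against 8.24% and 4.81% of all genes. Those 2, Nr1i3 and Thrb, did not keep such a p under the other scalings. In limma it was 0.0517 and 0.0896 after median centring and 0.0773 and 0.168 after cyclic loess. After repeated quantile normalization it was 0.0603 and 0.0867. Nr1i3, which encodes the xenobiotic receptor CAR, read 5.37 and 5.52 under A-FABP, against 6.09 and 5.77 under PBS. Its groups lay 0.25 apart (difference -0.48 ± 0.15, adjusted p = 0.304 in limma). Thrb, a thyroid hormone receptor gene, lay at -0.27 ± 0.08 (adjusted p = 0.308 in limma) and Rarb, a retinoic acid receptor gene, at -0.23 ± 0.11 (0.403). Without PBS control replicate 1, Nr1i3 lay at -0.32, Thrb at -0.22 and Rarb at -0.12. After cyclic loess they lay at -0.37, -0.15 and -0.11. Of these, Thrb and Rarb were below the array medians on all 4 arrays. Genes within 0.5 log2 of Nr1i3 had quartiles of -0.27 and -0.02, and Nr1i3 lay below both. Genes near Rarb had the same quartiles, and Rarb lay between them. Thrb lay at the lower quartile of its own neighbours (-0.27). Rara, another retinoic acid receptor gene, lay at -0.06 and turned to 0.0063 after median centring. Nr1h4, which encodes the bile acid receptor FXR, lay at 0.26 (95% CI -0.15 to 0.67). It was 0.13 without A-FABP replicate 2, 0.15 without PBS control replicate 2 and 0.40 without A-FABP replicate 1. Vdr, the vitamin D receptor gene, lay at -0.0093 (95% CI -0.40 to 0.38) and turned to 0.06 after median centring and 0.007 after cyclic loess.

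Of 18 coactivator and corepressor genes 16 were measured, 5 below 0 and 11 above. Their median of 0.044 was 0.109 after median centring, -0.01 after cyclic loess and -0.002 after repeated quantile normalization. Of these, 1 was lower and 8 were higher without overlap of the groups, where 27.5% and 26% of all genes were so. All but 1 of the 16 lay above the median level, where the counts over 12545 genes were 2573 lower and 4857 higher, and no coactivator or corepressor gene had an unadjusted p under 0.05. Nrip1, which encodes the corepressor RIP140, lay at 0.17 ± 0.08, Tbl1xr1, an exchange factor gene of corepressor complexes, at 0.15 ± 0.08, and Ncoa1, which encodes the coactivator SRC-1, at 0.14 ± 0.10 (0.06 without A-FABP replicate 2 and 0.22 without A-FABP replicate 1). The adjusted p in limma was 0.406, 0.459 and 0.528.

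The partners of PGC-1 and genes of mitochondrial biogenesis were all measured (15 of 15), 7 below 0 and 8 above. Their median of 0.02 was 0.085 after median centring and turned to -0.028 after cyclic loess and -0.042 after repeated quantile normalization. The groups did not overlap in 5 lower and 6 higher, where 27.5% and 26% of all genes were so. At an unadjusted p under 0.05, 1 gene was lower and 1 higher, against 8.24% and 4.81% of all genes. Esrrg, an orphan receptor gene whose product works with PGC-1, read 6.25 and 6.43 under A-FABP, against 6.67 and 6.66 under PBS. Tfam, which encodes the packaging and transcription factor of mitochondrial DNA, read 8.01 and 8.10 against 7.81 and 7.56. Neither pair of groups overlapped, and the differences went opposite ways (-0.33 ± 0.10 and 0.37 ± 0.12, adjusted p = 0.304 and 0.316 in limma). Polrmt, the mitochondrial RNA polymerase gene, lay at 0.20 ± 0.09 (adjusted p = 0.392). Without PBS control replicate 2, Tfam lay at 0.24 and Polrmt at 0.13.

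Of 27 genes for ligand supply and transport 26 were measured, 15 below 0 and 11 above, with a median of -0.045 that turned to 0.02 after median centring. Without overlap of the groups, 6 were lower and 7 higher, where 27.5% and 26% of all genes were so. At an unadjusted p under 0.05, 4 were lower and 3 higher, against 8.24% and 4.81% of all genes. Fabp2, the intestinal fatty acid carrier gene, read 4.70 on both A-FABP arrays and 5.16 and 5.24 with PBS. Aldh1a3, whose product makes retinoic acid, the RAR ligand, read 5.31 and 5.22 against 5.79 and 6.03. Ptgs2, the COX-2 gene of prostaglandin synthesis, read 7.78 and 7.85 against 7.29 and 7.39. Their groups lay 0.39 to 0.48 apart, with differences of -0.50, -0.65 and 0.48 and an adjusted p of 0.296 each in limma. All 3 stood outside the quartiles of genes of similar level, Fabp2 and Aldh1a3 below a lower quartile of -0.27 and Ptgs2 above an upper quartile of 0.20. Fabp5, the epidermal carrier gene, lay at -0.14 (95% CI -0.53 to 0.26; 0.02 without A-FABP replicate 1), and Fabp4 at 0.11 (-0.10 to 0.33).

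**Figure D4:**
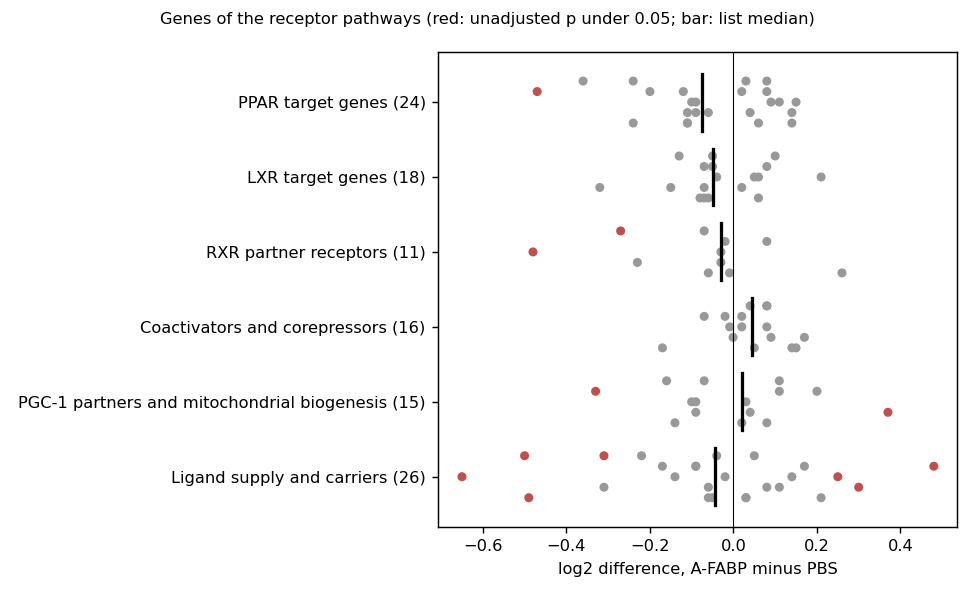
Log2 difference, A-FABP minus PBS (horizontal axis), of the measured genes of 6 lists, 1 point per gene, with the list median as a black bar and genes at an unadjusted limma p under 0.05 in red; vertical scatter within a list carries no value. The medians lie between -0.074 and 0.044 as deposited; those of every list except PPAR target genes change sign under another scaling, and that of PPAR target genes comes to -0.009 after median centring or cyclic loess.

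Markers of other cells were read beside these values. Macrophage and leukocyte markers had a median difference of -0.156, with 7 of 9 below 0, and their mean log2 level was 6.23 and 6.20 on the A-FABP arrays and 6.41 and 6.35 on the controls. Under the other scalings that median was -0.091, -0.068 and -0.085. The epithelial markers of the line itself had a median of -0.137, with 4 of 5 below 0, and -0.072, -0.051 and -0.073 under the other scalings. Itgam, Ptprc and C1qa had an unadjusted p under 0.05, all lower, where 8.24% of all genes had such a p on that side. Of the 9 macrophage and leukocyte markers, 6 lay below the median level. There 70.2% of all genes had a negative difference, with a median of -0.11. Ptprc, the defining leukocyte gene, was below the array medians (4.0 on both A-FABP arrays, 4.58 and 4.32 with PBS). Cd68, a lysosomal macrophage marker, was bright on all arrays (12.70 to 12.84, difference -0.08), and Csf1r, the macrophage growth factor receptor gene, lay above the medians (6.69 to 6.94) and at 0.16, with both A-FABP arrays higher. The median was 0.01 over 6 adipocyte markers, 0.186 over 5 fibroblast markers and -0.083 over 4 endothelial markers, the last turning to 0.016 after cyclic loess. The samples are described as EO771 cells, a single line. Whether fewer cells of a type or less RNA per cell lay behind a value cannot be told apart from these values. The part of these markers in the Ppargc1b value was not tested.

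**Figure D5:**
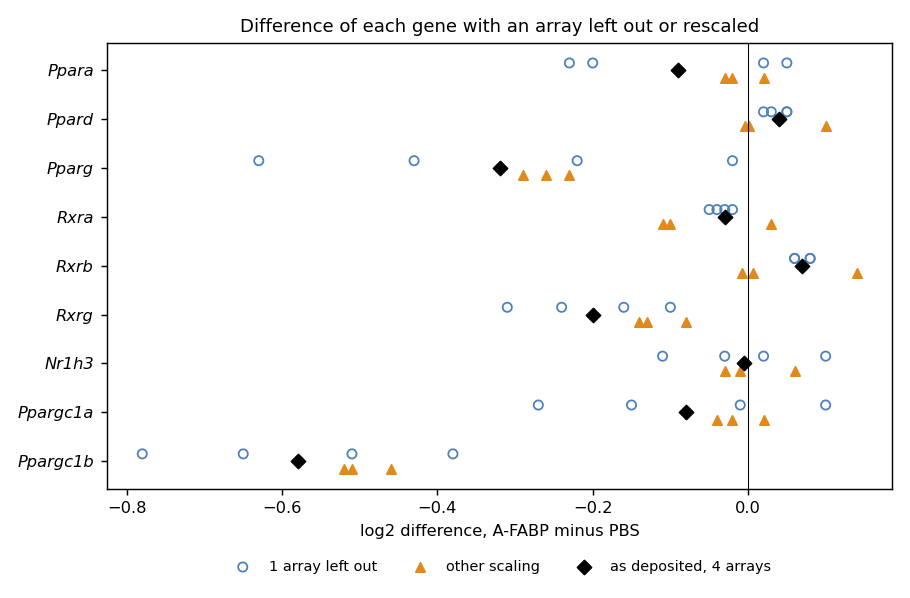
Log2 difference, A-FABP minus PBS (horizontal axis), of each gene as deposited (black diamond), with 1 array left out (open blue circles) and under 3 other scalings of the arrays (orange triangles). Only Ppargc1b, Pparg and Rxrg stay below 0 throughout, and Pparg reaches -0.02 without PBS control replicate 2. The groups of Ppargc1b and Rxrg do not overlap, so leaving out 1 array could not turn their sign.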

How the data were processed

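RNA from EO771 cells was labelled with biotin and read on 4 arrays. The authors deposited log2 values, 1 for each probe set on each array. RMA and Partek 6.6 are named in the submitters' processing notes, with no settings. Array design and genome build were not given in the sources used here. Gene coordinates are therefore left out, except for promoter stretches from RefSeq windows of GRCm38.p6. RMA can compress differences near background. Detection was not called, and the number of arrays limits the precision.

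The platform annotation named 1 gene for 23521 of 41345 probe sets, several for 1814 and none for 16010. The probe set with the highest mean over the 4 arrays stood for a gene. Differences were fitted across every probe set with limma 3.58.1 (lmFit, eBayes; R 4.3.3), Benjamini-Hochberg adjustment, 2 residual and 1.91 prior degrees of freedom. The fit was tested on simulated data. An exact permutation test of 2 against 2 arrays cannot give a two-sided p below 0.33.

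Members and lists were chosen with earlier results of these data known. Named list genes are the 3 with the lowest p per list, with Fabp4, Fabp5, Nr1h4, Rara and Vdr added. Listed genes without a probe set of their own were not analysed here. Alternatives were a replicate block, each array left out, other scalings, a level filter, other eBayes settings and the mean of a gene's probe sets.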

Additional observations from a re-analysis of the deposited data

How the results depend on the processing

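No probe set was called under any of the fits run, among them the one with the replicate number as a block (0 called, lowest adjusted p 0.377). Numbers did not pair the arrays: deviations of same-numbered arrays correlated at -0.009. The count of genes whose groups do not overlap was 11857 of 22180, and 16626 to 17729 with 1 array left out, where an order of 3 arrays is easier to meet. It was 7430 with the filter at the median level, which leaves 12545 genes. No block fit applies to that count. The filter left no value for the 5 dim members. Ppargc1b, Pparg and Rxrg kept their direction in all 9 alternatives fitted to each, and 6 of the 9 measured members turned sign in at least 1. The replicate block and the other eBayes settings leave a difference as it is, so they could not turn a sign. Leaving out 1 array cannot turn groups that do not overlap, as in Ppargc1b and Rxrg. For those genes only the other scalings could have changed the direction. With 1 array left out, Ppara ran from -0.23 to 0.05 (0.02 without A-FABP replicate 2 and 0.05 without PBS control replicate 1), Nr1h3 from -0.11 to 0.10 (0.10 and 0.02 without those arrays), Ppargc1a from -0.27 to 0.10 (without PBS control replicate 2), Fabp5 from -0.29 to 0.02 (without A-FABP replicate 1) and Vdr from -0.17 to 0.15 (0.02 without A-FABP replicate 2 and 0.15 without PBS control replicate 2). Median centring gave 0.03 for Rxra, 0.06 for Nr1h3, 0.0063 for Rara and 0.06 for Vdr. Cyclic loess gave 0.02 for Ppara, -0.0036 for Ppard, 0.02 for Ppargc1a and 0.007 for Vdr, and repeated quantile normalization -0.0077 for Rxrb. The other 291 values of single genes kept their direction, among them those of the block, filter and eBayes settings, which leave a difference as it is. No value changed its side of the threshold, because no probe set was called under any fit. The cause of each reversal was not tested.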

Other observations

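Enzymes and carriers that supply receptor ligands held more genes at a low unadjusted p than the rule for named genes prints, and those below were chosen after their values were seen. Cyp27a1, which encodes a sterol hydroxylase that makes oxysterol ligands of LXR, read 6.74 and 6.86 under A-FABP, against 6.49 and 6.50 under PBS (difference 0.30 ± 0.09). Cyp46a1, which encodes the brain cholesterol hydroxylase, read 7.93 and 7.94 against 7.72 and 7.64 (0.25 ± 0.08). Ch25h, another oxysterol enzyme gene, went the other way, at 5.27 and 5.45 against 5.61 and 5.73 (-0.31 ± 0.11). Stra6, which encodes the retinol-binding protein receptor, read 6.0 and 6.1 against 6.47 and 6.61 (-0.49 ± 0.10), and Alox15, a lipoxygenase gene, 5.79 and 5.67 against 6.08 and 6.0 (-0.31 ± 0.09). In each of the 5 genes the groups did not overlap, and the limma adjusted p lay between 0.296 and 0.331. Of all genes, 27.5% were lower and 26% higher without overlap. Picking genes by a low p favours such an order of the arrays, so it adds no support. Genes within 0.5 log2 of Cyp27a1 had a median difference of -0.07, and those near Stra6 of -0.12. Those near Cyp46a1 had a median of 0.10 and an upper quartile of 0.19. Those near Ch25h and Alox15 had a median of -0.15 and a lower quartile of -0.27. Cyp46a1, Ch25h and Alox15 thus lay only a little past a quartile of their neighbours.

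Of 16 genes with systematic nuclear receptor symbols (Nr0 to Nr6) that stand in none of the lists above, also gathered after values were seen, 10 lay below 0 and 6 above, with a median of -0.052 that turned to 0.013 after median centring. At an unadjusted p under 0.05, 1 was lower and 1 higher, against 8.24% and 4.81% of all genes. Nr1d1, which encodes the clock repressor REV-ERB alpha, was bright and tight at 11.30 on both A-FABP arrays and 11.58 and 11.64 with PBS (-0.31 ± 0.08, limma adjusted p = 0.296). It lies opposite to Thra in the genome, so signal from an overlapping transcript cannot be told apart without the probe positions. Its paralog Nr1d2 lay at 0.00075 (95% CI -0.23 to 0.23). Nr4a3, an immediate early receptor gene, read 7.31 and 7.32 against 7.08 and 6.82 (0.37 ± 0.12; 0.24 without PBS control replicate 2), while its relatives Nr4a1 and Nr4a2, listed as RXR partners, lay at 0.08 and -0.07. The limma adjusted p of Nr4a3 was 0.316.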
